A study of Mus musculus with 27 samples.

Results

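Tuft cell transcripts were followed through 27 mouse libraries by means of 8 genes, Dclk1, Trpm5, Pou2f3, Il25, Avil, Gfi1b, Alox5ap and Ptgs1, out of the 22524 genes counted in each library. The genes were taken by name, as markers in wide use for intestinal tuft cells, and the rule for them uses no measured value. Tuft cells are rare chemosensory cells of the gut epithelium that arise from crypt stem cells and depend on the octamer-binding transcription factor Pou2f3. They sense luminal cues through a taste-like cascade that ends at the cation channel Trpm5, release the cytokine Il25, which acts on type 2 lymphoid cells, and make leukotrienes and prostaglandins from arachidonic acid. Their numbers in the intestine are known to rise when Il4 or Il13 reaches the crypt.

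The organoids were epithelial cultures raised from distal jejunal crypts of 9 male C57BL/6 mice aged 8 to 12 weeks and were used at passage 5 to 8. Of the mice, 3 came from the SPF facility SR (cultures Z908, Z909 and Z910), 3 from the SPF facility SE (Z911, Z912 and Z913) and 3 from the germ-free facility GF (Z917, Z918 and Z919). Mice of 1 facility were cohoused littermates, so that facility and litter cannot be told apart, and crypt cultures are grown as epithelium, apart from the immune and stromal cells of the tissue. Each culture contributed a library labelled untreated and a library labelled TNF-treated, the latter after 8 hr with 5 ng/mL murine TNF. The epithelial line m-ICc12, immortalised from mouse small intestine, gave 3 libraries under each label (numbered M1, M2 and M3), and mouse embryonic fibroblasts (MEFs) gave 3 untreated libraries (R1, R2 and R3). In each of the 12 pairs, the sample label and the code under which its counts were deposited give opposite treatments. The labels were followed, and every difference between labels below takes the opposite sign if the pair is exchanged. The organoid and m-ICc12 libraries labelled untreated would then be the TNF-treated ones, while the MEFs have no pair. Whether the comparisons of libraries labelled untreated concern cells at rest therefore depends on the labels.

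Between 6071103 and 43843615 reads were counted on genes per library. Levels are given as CPM, counts scaled to a common library size after TMM normalisation, and as CPM per kb of exons where genes are compared with each other. A detection floor of 3 counts was used, which corresponds to between 0.0657 and 0.523 CPM depending on the library. Replicates were separate cultures for the organoids; for the m-ICc12 and MEF libraries nothing in the sources states this, so that their p-values may measure technical spread only. The m-ICc12 libraries held the epithelial keratin Krt8 at 1380 ± 193 CPM (SD, n = 6), but the intestinal genes Cdx1, Cdx2, Epcam and Cdh1 lay there at 1.21, 0.366, 4.78 and 2.42 CPM on average, against 428, 178, 989 and 997 CPM in the 18 organoid libraries. The kidney epithelium genes Pax8 and Cdh16 lay at 293 ± 26.7 and 714 ± 101 CPM in m-ICc12 cells, and at 4.24 ± 1.63 and 0.495 ± 0.379 CPM in organoids. In such bulk libraries, fewer cells of a type and less RNA per cell cannot be told apart.

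The 8 genes lie on 7 chromosomes of GRCm38 and code for protein. Pou2f3 (chr9:43123939-43210369, minus strand) encodes the lineage factor, and Gfi1b (chr2:28609450-28621982, minus strand) a zinc finger repressor. Trpm5 (chr7:143069153-143094642, minus strand) is the channel of the taste-like cascade, and Il25 (chr14:54932695-54935837, plus strand) the cytokine. Dclk1 (chr3:55242364-55539068, plus strand) encodes a doublecortin-like kinase and Avil (chr10:127000709-127020994, plus strand) the actin-binding protein advillin. Alox5ap (chr5:149264767-149288153, plus strand) encodes the protein that presents arachidonic acid to 5-lipoxygenase, and Ptgs1 (chr2:36230426-36252272, plus strand) encodes cyclooxygenase 1.

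The RefSeq promoter table for GRCm38.p6 held a start site for 5 of the 8 genes (Gfi1b, Ptgs1, Trpm5 and Avil with 1 start each, Dclk1 with 2), and none for Pou2f3, Il25 and Alox5ap. The 250 bases before the start are shown for the genes with an entry that were called between organoids and m-ICc12 cells in the libraries labelled untreated. These are Trpm5 and Avil, which were above the floor in most organoid libraries, Ptgs1, which was highest in m-ICc12 cells, and Dclk1, which was highest in MEFs. Capitals mark the letters ATGCAAA on either strand, the octamer recognised by POU factors without its last base.

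Trpm5, chr7:143094643-143094892, minus strand: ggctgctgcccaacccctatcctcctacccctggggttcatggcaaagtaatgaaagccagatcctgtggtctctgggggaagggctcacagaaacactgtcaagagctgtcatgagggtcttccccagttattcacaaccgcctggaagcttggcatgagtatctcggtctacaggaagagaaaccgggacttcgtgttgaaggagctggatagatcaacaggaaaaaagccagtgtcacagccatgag
Avil, chr10:127000459-127000708, plus strand: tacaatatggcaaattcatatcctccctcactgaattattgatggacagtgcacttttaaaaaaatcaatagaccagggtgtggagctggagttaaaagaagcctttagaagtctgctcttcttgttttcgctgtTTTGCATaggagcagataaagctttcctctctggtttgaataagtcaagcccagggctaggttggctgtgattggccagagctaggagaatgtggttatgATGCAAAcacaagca
Ptgs1, chr2:36230176-36230425, plus strand: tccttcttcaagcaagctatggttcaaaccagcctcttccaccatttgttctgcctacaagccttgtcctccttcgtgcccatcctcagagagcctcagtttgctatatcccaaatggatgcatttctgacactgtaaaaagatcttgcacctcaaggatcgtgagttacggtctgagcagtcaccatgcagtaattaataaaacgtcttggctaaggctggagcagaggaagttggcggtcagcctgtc
Dclk1, first start, chr3:55242114-55242363, plus strand: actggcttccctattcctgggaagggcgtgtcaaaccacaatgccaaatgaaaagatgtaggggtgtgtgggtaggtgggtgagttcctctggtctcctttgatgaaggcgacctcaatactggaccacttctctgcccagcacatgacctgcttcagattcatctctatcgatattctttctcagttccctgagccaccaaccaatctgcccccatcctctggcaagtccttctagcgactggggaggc
Dclk1, second start, chr3:55461478-55461727, plus strand: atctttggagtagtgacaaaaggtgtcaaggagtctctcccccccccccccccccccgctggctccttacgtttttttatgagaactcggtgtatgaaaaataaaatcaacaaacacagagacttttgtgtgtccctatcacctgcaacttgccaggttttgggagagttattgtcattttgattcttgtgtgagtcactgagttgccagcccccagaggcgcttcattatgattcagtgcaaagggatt

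The full octamer ATGCAAAT was in none of these windows nor in that of Gfi1b, searched on both strands, and it was present in 1.6% of the 32851 promoter windows of the table. The shorter ATGCAAA, which every full octamer contains, was present in 4.12% of all windows. Among the genes shown it was found in that of Avil only, once on each strand, with its leftmost base 115 and 15 bases before the start. The Avil window had 42% G and C and 1 CpG, and that of Trpm5 52.8% and 4 CpGs, with a median of 52.4% and 6 CpGs over the table. A match to these letters is a description of the window and does not show binding.

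In organoids, the 8 genes ranged from undetected to a few CPM. Per kb of exons, Pou2f3 had the highest mean at 0.929 ± 0.44 CPM per kb (SD over 18 libraries of 9 cultures), followed by Avil at 0.593 ± 0.43 and Trpm5 at 0.559 ± 0.408, and these 3 overlapped in their spread. Alox5ap followed at 0.181 ± 0.214, Ptgs1 at 0.144 ± 0.309, Dclk1 at 0.0721 ± 0.0601 and Gfi1b at 0.0401 ± 0.105 CPM per kb, again with spreads that overlapped between neighbours. Il25 had 0 counts in all 27 libraries. Of the 18 organoid libraries, Trpm5 and Pou2f3 were above the floor in 18, Avil in 16, Dclk1 in 15, Ptgs1 in 10, Alox5ap in 7 and Gfi1b in 2. Against the 12249 genes that were above the floor in at least 50% of these libraries and had an exon length, the mean per-kb level of Pou2f3 exceeded 14.7% of genes, that of Avil 10.9%, that of Trpm5 10.5% and that of Dclk1 0.972%. Exon length was the union of all annotated exons of a gene, 15.3 kb for Dclk1. Exons not used in these cells would lower its per-kb level and rank.

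For Il25, the pooled total of 494463096 organoid counts allows a level of up to 0.00607 CPM from 0 counts, the m-ICc12 total up to 0.0168 CPM and the MEF total up to 0.0283 CPM. These limits, like the floors, cover counting error only. Gfi1b had 27 organoid counts in all, of which 15 came from the library of Z917 labelled TNF-treated and 8 from that of Z910 labelled untreated, and it had 0 counts in all m-ICc12 and MEF libraries.

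**Figure D1:**
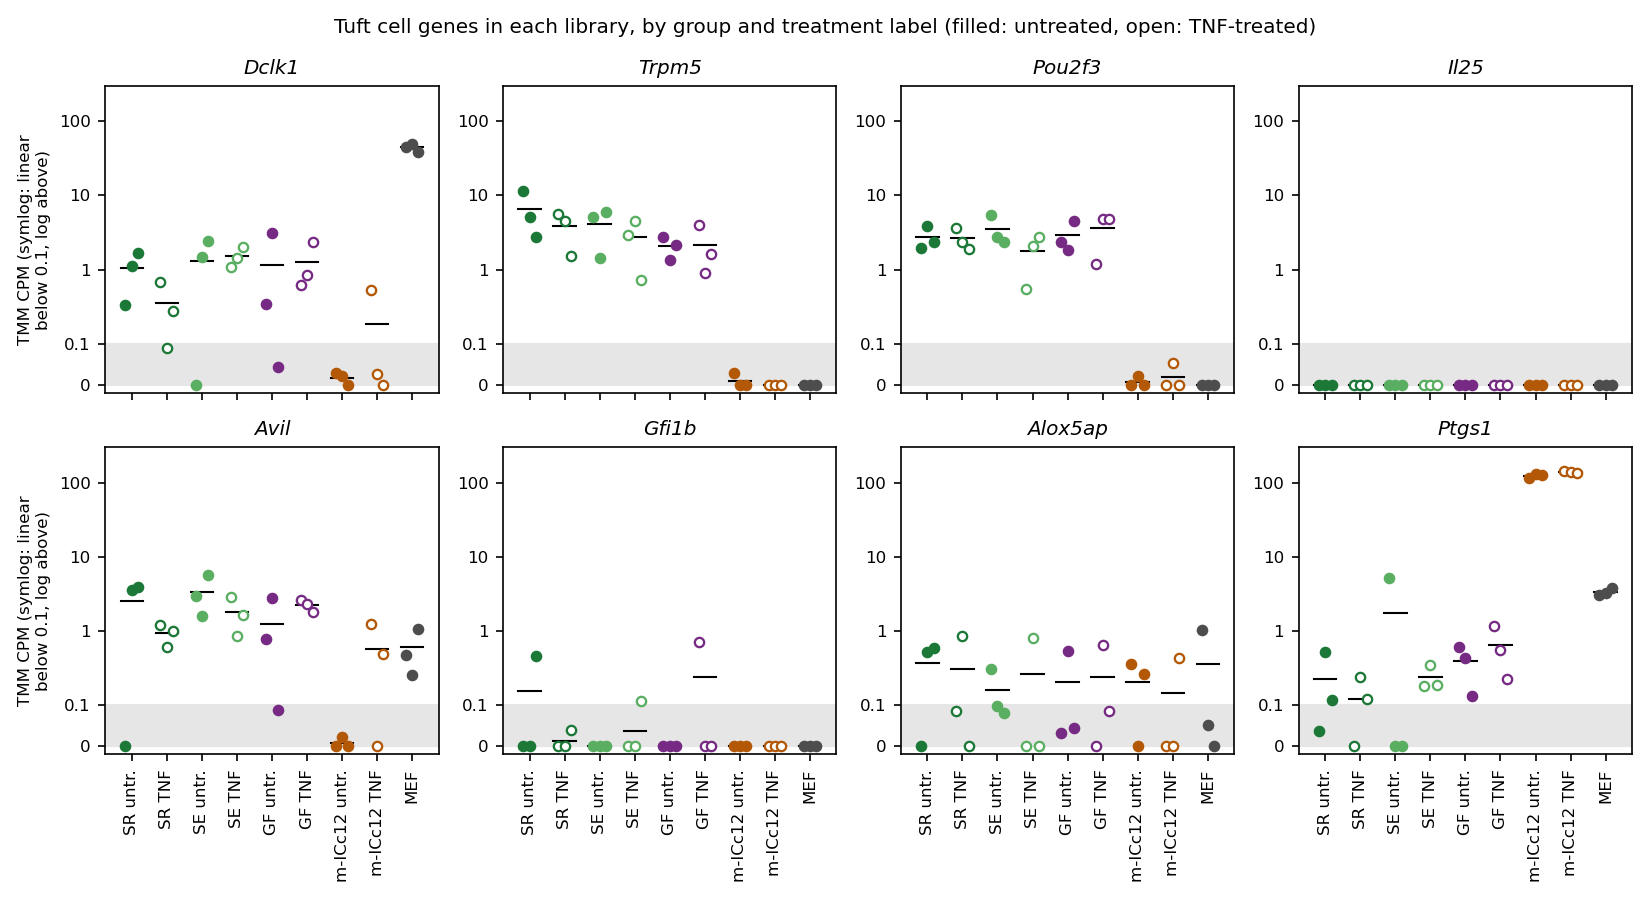
Level of each of the 8 tuft cell genes in every library (1 point a library, line: group mean), in TMM CPM on a symlog axis that is linear below 0.1, by facility or cell type and treatment label. The grey band ends at 0.0996 CPM, the median over libraries of the 3-count floor. Trpm5 and Pou2f3 stand above the band in all 18 organoid libraries and within it in m-ICc12 cells and MEFs, Dclk1 is highest in MEFs (39 to 50.2 CPM), Ptgs1 in m-ICc12 cells (114 to 144 CPM), and Il25 is at 0 throughout.

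The marker lists of the other epithelial types had far higher medians in the same organoids. The median gene of the enterocyte list (6 genes, with Apoa1 highest) had a mean of 211 CPM per kb, that of the Paneth list (5 genes, with Itln1 highest) 90.2, that of the goblet list (6 genes, with Tff3 highest) 53.3, that of the stem cell list (5 genes, with Olfm4 highest) 21.2 and that of the enteroendocrine list (8 genes, with Gcg highest) 16.5 CPM per kb. The median of the 8 tuft cell genes was 0.162 CPM per kb, and no tuft cell gene reached the lowest enteroendocrine marker, the tachykinin gene Tac1 at 1.54 CPM per kb. Over all 22214 genes of the files with a symbol and an exon length, the median was 0.519 CPM per kb. The lists were not matched for the kind of gene. Of the secretory lineage regulators, Gfi1 at 0.788 CPM per kb lay below Pou2f3 at 0.929. Atoh1 was at 3.53, Dll1 at 5.91, Hes1 at 33.5 and Sox4 at 44.3 CPM per kb. The gap between the lists is therefore not a measure of cell numbers.

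**Figure D2:**
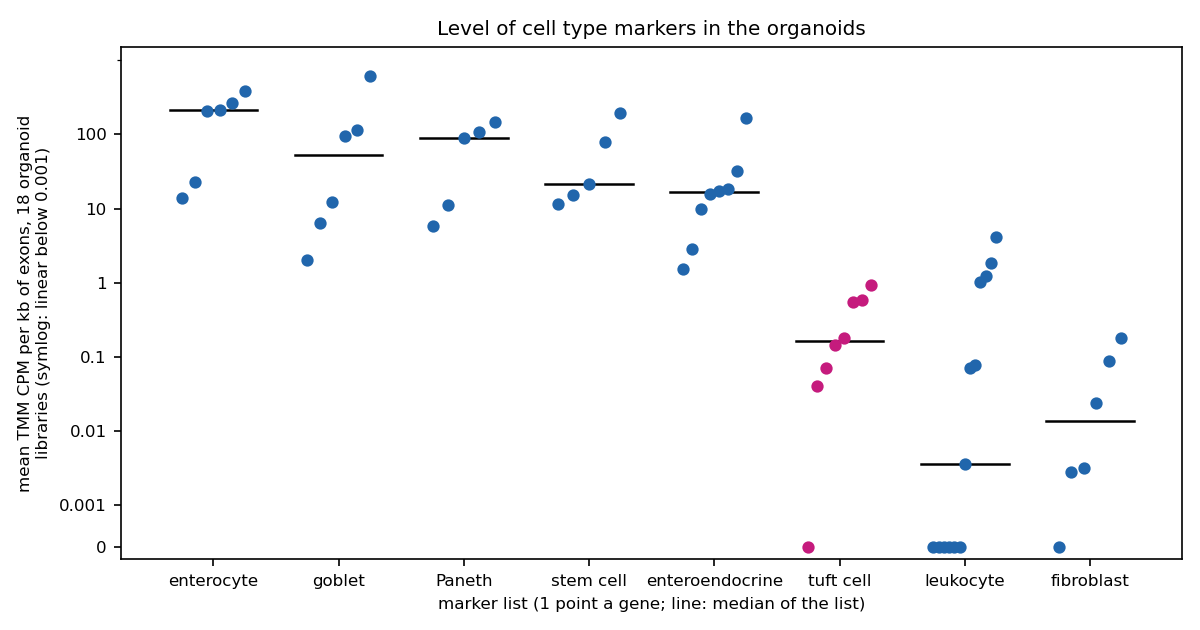
Mean level over the 18 organoid libraries of each gene in 8 marker lists (1 point a gene, line: median of the list), in TMM CPM per kb of exons on a symlog axis that is linear below 0.001. The tuft cell genes lie between 0 and 0.929 CPM per kb, below all enterocyte, goblet, Paneth, stem cell and enteroendocrine markers shown.

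Leukocyte markers bear on the tuft cell list because Gfi1b, Alox5ap and Ptgs1 are also used by blood cells. Of the leukocyte and mast cell markers, Adgre1, Mpo, Cpa3, Fcer1a and Ms4a2 had 0 counts in all 18 organoid libraries, 3 were at or under the floor in most of them (Cd3e above it in 1, Cd79a in 4 and Csf1r in 5), and Cd14, Kit, Itgam and Cd68 were above it in 18, 18, 18 and 15. Their summed level lay between 18.4 and 62 CPM, most of it Kit (16.6 ± 5.64 CPM), the stem cell factor receptor, Cd14 (7.16 ± 4.52 CPM) and Itgam (5.24 ± 2.56 CPM). The pan-leukocyte gene Ptprc had 0 counts in 16 of 18 organoid libraries.

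The first comparison set the organoids labelled untreated against the epithelial cell line under the same label. Among the libraries labelled untreated (9 organoid against 3 m-ICc12 libraries), 6 of the 8 genes had enough counts to be tested, and 5 were called by edgeR's quasi-likelihood F-test at a Benjamini-Hochberg adjusted p under 0.05, where 60.9% of all 12962 genes tested were called (31.6% higher and 29.3% lower in organoids). Pou2f3, Trpm5, Avil and Dclk1 were higher in organoids and Ptgs1 was lower. The median log2 difference of the 6 tested genes was 6.73, against 0.03 over all genes tested. Pou2f3, Trpm5, Avil and Dclk1 had 1, 1, 1 and 2 counts in these m-ICc12 libraries. They could therefore be tested only through their organoid counts, and Ptgs1 only through its m-ICc12 counts. This largely fixed the signs and the median in advance, so that the median is a description only.

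Pou2f3 lay between 1.83 and 5.42 CPM in the organoids (median 2.39) and had 1 count in the 3 m-ICc12 libraries together, with no overlap. The ratio of the pooled counts, 726 against 1, was 368 with a 95% interval of counting error of 65.8 to 14500 (adjusted p = 2.1e-05, edgeR). Trpm5 lay between 1.33 and 11.5 CPM in organoids (median 2.77) and also had 1 count in the 3 m-ICc12 libraries, giving a ratio of 511 (91.5 to 20200, adjusted p = 4.4e-05). Neither gene overlapped between the cell types, whichever label was taken, and in the 6 m-ICc12 libraries of both labels Trpm5 had 1 count and Pou2f3 3 counts.

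Avil and Dclk1 were less clear-cut because some organoid libraries lacked them. Avil lay between 0 and 5.6 CPM in organoids (median 2.79) and had 1 count in the m-ICc12 libraries labelled untreated, a ratio of 279 (49.8 to 11000, adjusted p = 0.0027, edgeR). The organoid library of Z908 was at 0 for Avil and overlapped with the cell line. Dclk1 lay between 0 and 3.09 CPM (median 1.1) against 2 counts in m-ICc12 cells, a ratio of 71.4 (19.6 to 593, adjusted p = 0.011), and the organoid library of Z911 was at 0. With the libraries labelled TNF-treated, neither was called (adjusted p = 0.19 for Avil and 0.072 for Dclk1, edgeR), Avil then having 7 counts in M1 and 10 in M3, and Dclk1 was also lost without M3 (adjusted p = 0.053).

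Ptgs1, the constitutive cyclooxygenase, went the other way. The m-ICc12 libraries labelled untreated held it at 114, 130 and 128 CPM, and the organoid libraries at 0 to 5.23 CPM (median 0.133), without overlap. The log2 difference was -7.26 ± 0.89 (SE worked back from the F value, as for all log2 differences here, adjusted p = 2.4e-06, edgeR). The leukocyte and mast cell markers summed to between 91.8 and 148 CPM in these m-ICc12 libraries and to between 18.4 and 62 CPM in these organoid libraries. The sum in m-ICc12 cells was mostly Csf1r (104 ± 23.7 CPM over the 6 libraries), and the markers did not move as 1 group. Of 6 tested, 3 were lower in organoids (Csf1r, Ms4a2 and Cd68) and 2 were higher, Kit and Itgam (log2 differences 10.32 ± 0.84 and 10.26 ± 1.54, adjusted p = 1.7e-08 and 4.1e-05, edgeR), while Cd14 was not called (-0.52 ± 0.41, adjusted p = 0.29). Of the others, Cd3e, Adgre1, Mpo, Cpa3 and Fcer1a were at 0 in all 6 m-ICc12 libraries. Their part in the Ptgs1 difference was not tested. Alox5ap was at 0.352, 0 and 0.264 CPM in m-ICc12 cells and at 0 to 0.579 CPM in organoids, overlapping fully (log2 difference 0.27 ± 1.38, adjusted p = 0.88).

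Against MEFs, 3 of the 5 tested genes were called, where 67.2% of all genes tested were called (34.6% higher and 32.6% lower in organoids), and Pou2f3 and Trpm5 were again higher in organoids. Both had 0 counts in the 3 MEF libraries and could be tested only through their organoid counts. With 3 counts over the MEF group as the limit, Trpm5 was at least 151-fold and Pou2f3 at least 109-fold higher in organoids (adjusted p = 2.4e-05 and 7.5e-06, edgeR). Dclk1 was the reverse. The fibroblasts held it at 45.4, 50.2 and 39 CPM, above each of the 18 organoid libraries, and the log2 difference was -5.24 ± 0.78 (adjusted p = 1.9e-05). The 6 fibroblast markers summed to between 3240 and 4280 CPM in MEFs and to between 0.534 and 9.09 CPM in the organoids labelled untreated, and their part in the Dclk1 difference was not tested.

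Avil at 0.475, 0.252 and 1.07 CPM and Ptgs1 at 3.04, 3.2 and 3.84 CPM in MEFs were within the range of the organoids and did not pass the test (log2 differences 2 ± 1.29 and -2.07 ± 1.32, adjusted p = 0.18 for both, edgeR). The Ptgs1 comparison hung on 1 organoid library, that of Z911 labelled untreated, with 137 of the 190 counts of its group. Without Z911 the log2 difference was -3.82 (adjusted p = 0.0063), and it was called as well with the libraries labelled TNF-treated (-3.3, adjusted p = 0.0026), with all 27 libraries in 1 fit (-2.59, adjusted p = 0.0018) and in DESeq2 (-3.45, adjusted p = 0.011).

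The cell types outside the organoids also differed from each other in these genes. Between m-ICc12 cells and MEFs, 3 of the 4 tested genes were called, where 59.3% of all genes tested were called (28.1% higher and 31.2% lower in m-ICc12 cells). Ptgs1 was 37.9-fold higher in m-ICc12 cells by pooled counts (34.1 to 42.3, adjusted p = 1.2e-10, edgeR), and Dclk1 was 2770-fold higher in MEFs by pooled counts of 4924 against 2 (766 to 22900, adjusted p = 1.6e-10). The call for Avil, lower in m-ICc12 cells at an adjusted p of 0.0081, was lost without M1, M3, R1 or R3 (adjusted p between 0.052 and 0.057) and with the m-ICc12 libraries labelled TNF-treated (adjusted p = 0.9). Alox5ap was at 1.02, 0.0504 and 0 CPM in MEFs and was not called (adjusted p = 0.67).

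Beyond the 8 genes, 45 further genes known from tuft cells were grouped by role. In organoids, 25 of the 45 were above the floor in at least 50% of the libraries and 3 were at 0 in all 18, namely Chat, Sucnr1 and Vmn2r26. In both m-ICc12 cells and MEFs 14 of the 45 were above the floor in at least 50% of the libraries, and 21 and 20 were at 0 in every library. Against m-ICc12 cells, 22 of the 45 were tested, of which 9 were higher and 5 lower in organoids (median log2 difference 1.16, against 0.03 over all genes tested). Against MEFs 11 were higher and 3 lower of 22 (median 1.76, against 0.03). The share called was 63.6% in both, near the 60.9% and 67.2% of all genes tested, so that the number of calls does not set these genes apart. Genes at 0 in m-ICc12 cells and MEFs, such as Ltc4s, Rgs13, Lrmp and St18, could be tested only through their organoid counts. That raises both medians. Ptprc and Tslp against m-ICc12 cells, and Tslp and Nebl against MEFs, were lower in organoids and could be tested only through the other cell type. That lowers the medians, and the net effect was not worked out.

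Of the 10 genes of the taste-like cascade, the transducers Gnat3, Gnb3 and Gng13 were at 0 counts in 15, 16 and 16 of 18 organoid libraries, and the phospholipase Plcb2 was above the floor in 6. The calcium channel Itpr3, the most abundant gene of the list, was at 222 CPM on average in organoids, 127 CPM in m-ICc12 cells and 206 CPM in MEFs, and it was higher in organoids than in m-ICc12 cells (log2 difference 0.64 ± 0.15, adjusted p = 0.0014, edgeR). The taste receptor subunit Tas1r3 was above the floor in 14 and the short-chain fatty acid receptor Ffar3 in 11 organoid libraries, whereas Sucnr1, the succinate receptor, was above the floor in 1 library of m-ICc12 cells only, with 72 counts.

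Among the enzymes of lipid mediators, the leukotriene synthase Ltc4s was above the floor in 13 organoid libraries (0.7 CPM on average) and at 0 in all m-ICc12 and MEF libraries (adjusted p = 0.0017 and 0.0014, edgeR). Alox5, the 5-lipoxygenase that works with Alox5ap, was above the floor in 3. The phospholipase Pla2g4a, which frees arachidonic acid, was at 54.3 CPM in organoids, 0.923 CPM in m-ICc12 cells and 99.3 CPM in MEFs, higher in organoids than in the former (log2 difference 5.69 ± 0.33, adjusted p = 2.4e-10) and lower than in the latter (-0.97 ± 0.19, adjusted p = 0.00034). The prostaglandin D synthase Hpgds was above the floor in 12 organoid libraries (0.86 CPM on average) and in all 6 m-ICc12 libraries (3.3 CPM), and the log2 difference of -1.13 ± 0.86 was not called (adjusted p = 0.27).

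Of the 15 signalling genes shared with blood cells, Rgs13, a regulator of G protein signalling, and Lrmp were at 1.17 and 0.892 CPM on average in organoids and at 0 in all m-ICc12 and MEF libraries (adjusted p = 0.00091 and 0.004 against m-ICc12 cells, edgeR). Plcg2 was also higher in organoids than in m-ICc12 cells (log2 difference 6.21 ± 1.38, adjusted p = 0.00098). Ptprc, with the smallest p of these genes, was lower (-6.58 ± 1.13, adjusted p = 9.6e-05), at 0.848 CPM on average in m-ICc12 cells. In that comparison 3 of these genes were called higher in organoids and 1 lower. Il17rb, a subunit of the Il25 receptor, was at 3.07 CPM in organoids and 4.26 CPM in m-ICc12 cells and had 2 counts in the MEFs (adjusted p = 0.78 and 6.1e-05). Siglecf was above the floor in 1 organoid library. Of the transcription factors, St18 was above the floor in 16 organoid libraries and at 0 in all m-ICc12 and MEF libraries. Spib, also used by M cells, was above it in 10 organoid libraries (0.78 CPM on average) and in 5 of 6 m-ICc12 libraries (2.61 CPM), and was not called between them (log2 difference -1.69 ± 1.12, adjusted p = 0.2). The haem-binding Hebp1 was at 5.91 CPM in organoids and 0.00488 CPM in m-ICc12 cells (adjusted p = 9.8e-06), whereas the tubulin Tuba1a and the surface gene Cd24a, which many cells express, were lower in organoids than in m-ICc12 cells (log2 differences -4.63 ± 0.18 and -0.61 ± 0.13, adjusted p = 1.5e-12 and 0.00059). Kctd12 was lower as well (-3.22 ± 0.25, adjusted p = 8e-09). Among the effectors and other tuft genes, 2 were called higher and 4 lower in organoids than in m-ICc12 cells. Of the genes through which Il4 and Il13 signal, Il4ra was at 30.1 ± 7.65 and Il13ra1 at 40.3 ± 7.65 CPM in organoids.

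**Figure D3:**
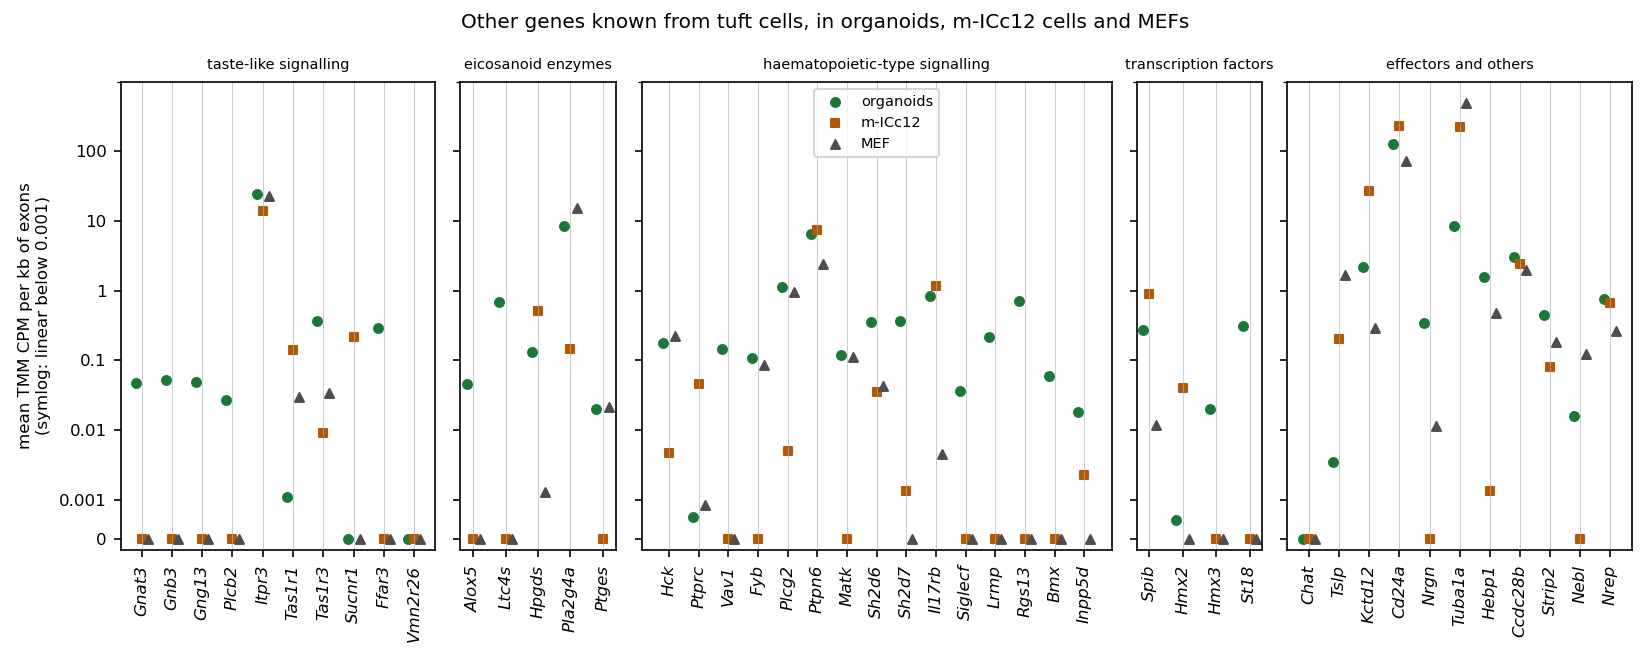
Mean level of 45 further genes known from tuft cells in organoids (18 libraries), m-ICc12 cells (6) and MEFs (3), in TMM CPM per kb of exons on a symlog axis that is linear below 0.001, grouped by role. Ltc4s, Lrmp, Rgs13 and St18 are seen in organoids and at 0 in both other cell types, while Itpr3, Ptpn6, Cd24a, Tuba1a and Ccdc28b are present in all 3.

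The libraries of 1 culture differed in treatment label, so that the spread of a pair holds any response to TNF as well as variation within the culture. For Trpm5, cultures Z908, Z909 and Z910 of SR read 11.5, 5.17 and 2.72 CPM with the untreated label and 5.61, 4.5 and 1.52 CPM with the TNF label. Cultures Z911, Z912 and Z913 of SE read 5.11, 1.41 and 5.92 CPM against 2.9, 4.59 and 0.712 CPM. Cultures Z917, Z918 and Z919 of GF read 2.77, 1.33 and 2.17 CPM against 3.99, 0.898 and 1.6 CPM. Trpm5 was thus higher under the untreated label in 7 of 9 cultures, and the exact Poisson intervals of the 2 counts (95%, counting error only) lay apart in 4.

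For Pou2f3, the SR cultures in the same order read 1.94, 3.89 and 2.37 CPM with the untreated label and 3.68, 2.35 and 1.88 CPM with the TNF label. The SE cultures read 5.42, 2.78 and 2.38 CPM against 0.543, 2.07 and 2.77 CPM. The GF cultures read 2.39, 1.83 and 4.52 CPM against 1.17, 4.84 and 4.78 CPM. The lineage factor was never lost in a library, the untreated label was higher in 5 of 9 cultures, and the intervals lay apart in 5, in both directions.

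For Avil, the SR cultures read 0, 3.58 and 3.93 CPM with the untreated label and 1.2, 0.603 and 0.998 CPM with the TNF label. The SE cultures read 2.94, 1.6 and 5.6 CPM against 2.9, 0.86 and 1.65 CPM. The GF cultures read 0.786, 2.79 and 0.0887 CPM against 2.58, 2.34 and 1.8 CPM. Intervals lay apart in 6 of 9 cultures, 3 of them higher under each label.

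For Dclk1, the SR cultures read 0.335, 1.1 and 1.68 CPM with the untreated label and 0.684, 0.0905 and 0.279 CPM with the TNF label. The SE cultures read 0, 1.47 and 2.46 CPM against 1.09, 1.43 and 1.99 CPM. The GF cultures read 0.346, 3.09 and 0.0443 CPM against 0.611, 0.834 and 2.33 CPM. The kinase was thus above the floor in 1 library and at or under it in the other of the same mouse in Z909, Z911 and Z919, and the intervals lay apart in 5 of 9 cultures.

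**Figure D4:**
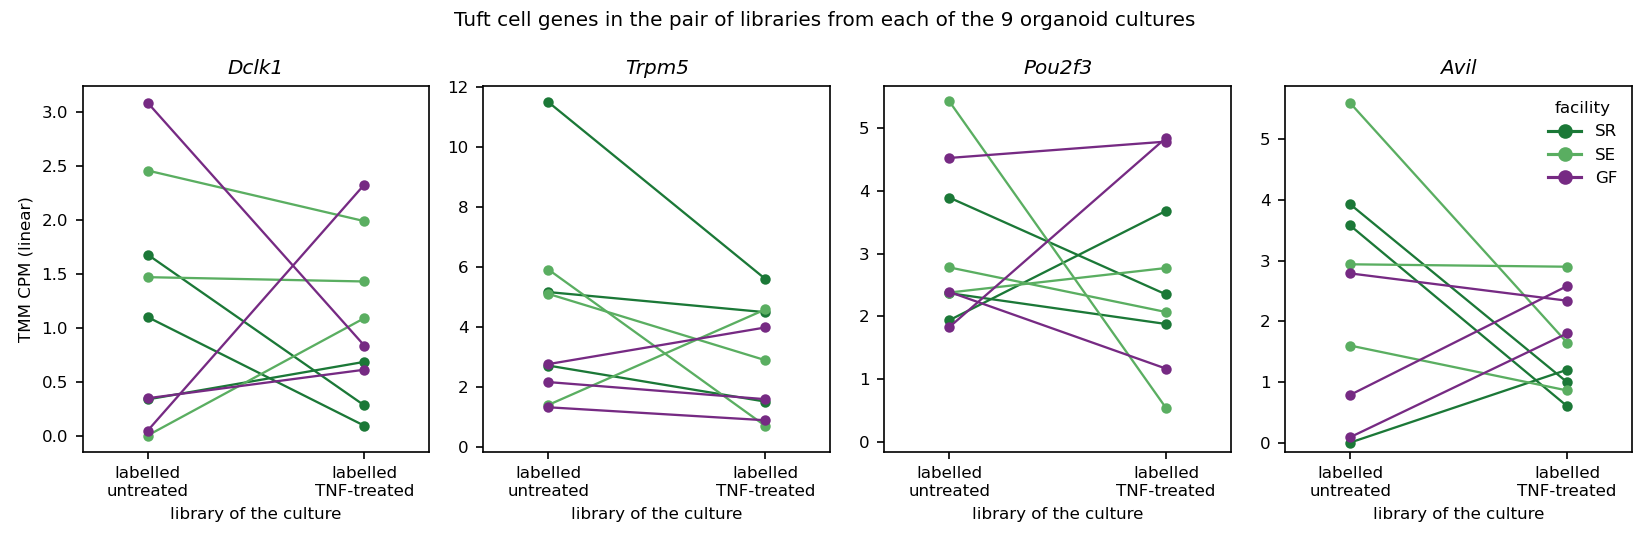
Levels of Dclk1, Trpm5, Pou2f3 and Avil in the pair of libraries of each of the 9 organoid cultures (1 line a culture, coloured by facility), in TMM CPM on a linear axis, by treatment label. Lines cross in all 4 panels, with Trpm5 higher under the untreated label in 7 of 9 cultures, Avil in 6, Dclk1 and Pou2f3 in 5.

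The remaining genes were sparse in organoids. Ptgs1 had 137 counts in the untreated library of Z911 (5.23 CPM) and 2 in the other library of that culture (0.181 CPM), and otherwise at most 25 counts. Alox5ap had at most 28 counts, and its intervals lay apart in 2 of 9 cultures.

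The test of the TNF label asked whether tuft cell transcripts changed within 8 hr of the cytokine. With 9 against 9 organoid libraries, 4 of the 8 genes were tested and 0 were called, where 1.39% of all 12104 genes tested were called (0.124% higher and 1.26% lower under the TNF label), and 0 of the 4 reached an unadjusted p under 0.05 in edgeR and 0 were called in DESeq2. The log2 differences, TNF label minus untreated label, were -0.54 ± 0.49 for Trpm5, -0.52 ± 0.69 for Avil, -0.19 ± 0.45 for Pou2f3 and -0.18 ± 0.8 for Dclk1 (SE, adjusted p between 0.88 and 0.98), and the groups overlapped for each. The standard errors leave room for changes of more than 1 on the log2 scale in either direction for Dclk1. For Trpm5, Avil and Pou2f3 they leave room for a fall of more than 1. With the culture as a block the difference turned to 0.13 for Dclk1 and 0.04 for Avil, with no gene called. Of the 45 further tuft cell genes, 24 were tested and 0 were called.

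In m-ICc12 cells, Ptgs1 and Alox5ap had enough counts for a test of the TNF label. Ptgs1 read 144, 139 and 134 CPM in M1, M2 and M3 with the TNF label, against 114, 130 and 128 CPM with the untreated label, without overlap (log2 difference 0.18 ± 0.16, adjusted p = 1, edgeR). Neither gene was called or reached an unadjusted p under 0.05, where 0.11% of all genes tested were called (0.0169% higher and 0.0927% lower), and DESeq2 called 0 of both. The M1 library labelled TNF-treated was the shallowest of all, with a floor of 0.523 CPM after TMM scaling.

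The donor's microbiota was compared among the libraries labelled untreated, 3 GF against 6 SPF cultures. Here 5 genes were tested and 0 called, with 0 at an unadjusted p under 0.05 in edgeR and 0 called in DESeq2, where 0.0325% of all genes tested were called (0.0244% higher and 0.00812% lower in GF). Trpm5 was at 1.33, 2.17 and 2.77 CPM in GF and between 1.41 and 11.5 CPM (median 5.14) in SPF cultures, and the log2 difference was -1.34 ± 0.75 (SE, adjusted p = 1, edgeR). Pou2f3 was at 1.83, 2.39 and 4.52 CPM in GF and between 1.94 and 5.42 CPM in SPF cultures (log2 difference -0.1 ± 0.75), and Avil at 0.0887, 0.786 and 2.79 CPM against 0 to 5.6 CPM (-1.27 ± 1.29). The groups overlapped for each gene. With the libraries labelled TNF-treated the Trpm5 difference was -0.62, while those of Pou2f3, Avil, Dclk1 and Ptgs1 turned positive (0.69, 0.72, 0.44 and 1.81).

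Between the SPF facilities, 3 SR against 3 SE cultures, 5 genes were tested and 0 called (0 at an unadjusted p under 0.05 in edgeR and 0 in DESeq2, with 0.0% of all genes called), and the log2 differences lay between -0.43 for Avil and 1.16 for Alox5ap. The response to the TNF label did not pass the test of a difference between GF and SPF cultures for any of 5 genes tested, 0 of which reached an unadjusted p under 0.05 in edgeR and where 0.0% of all genes were called. The largest of these differences of differences was that of Ptgs1 (3.13 ± 2.3 on the log2 scale, adjusted p = 1), the gene for which the untreated library of Z911 held 137 of the 190 counts of its group.

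Finally, the 9 cultures were compared with each other against the spread between the libraries of 1 culture. None of the 4 tuft cell genes tested was called (adjusted p between 0.51 for Trpm5 and 0.99 for Pou2f3, edgeR, 0 at an unadjusted p under 0.05 and 0 called in DESeq2), where 12% of all genes tested were called. In the same test the enterocyte list had 6 of 6 genes called (among them Sis, Apoa4 and Apoa1), the stem cell list 5 of 5 (among them Olfm4 and Lgr5), the goblet list 5 of 6, the Paneth list 3 of 5 and the enteroendocrine list 3 of 8 (Gcg, Chgb and Sst). These lists were not matched to the tuft cell genes for level. Their medians in organoids lay between 16.5 and 211 CPM per kb, and no tuft cell gene exceeded 0.929 CPM per kb. Genes with few counts are harder to call, so the contrast does not show that tuft cell genes are steadier between cultures. Of the further tuft cell genes, 2 of 24 were called, the widely expressed Itpr3 and Cd24a. Differences between cultures held 64.3% of the variation of log2 CPM for Trpm5, 48.1% for Avil, 38.4% for Dclk1 and 31% for Pou2f3, after the label means were taken out, with a median of 60.9% over the 12104 genes above background. With 8 degrees of freedom between cultures and 8 within them, a gene without any culture effect has a share of about 50%.

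The scatter between libraries, as edgeR estimates it, was near the trend of other genes at the same abundance. Since edgeR draws each gene's estimate towards that trend, the nearness is partly built in. In the 9 against 9 fit, the biological coefficient of variation (the spread edgeR estimates beyond counting error) was 1.03 for Dclk1, 0.923 for Avil, 0.693 for Trpm5 and 0.614 for Pou2f3, and the trend at their abundance was 1.01, 0.906, 0.718 and 0.802. In the m-ICc12 against MEF fit it was 0.14 for the abundant Ptgs1 with a trend of 0.156. Over the 9 culture means, the 4 genes did not rise and fall together, with Pearson's r between -0.602 (Dclk1 and Trpm5) and 0.293 (Dclk1 and Avil) and above 0 in 2 of 6 pairs, as a description without a test, since all points share their libraries.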

How the data were processed

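The 27 poly-A libraries were read from a single end. The labels call the preparation kit stranded and the paper does not. The authors clipped adapters and 5 further bases, mapped to GRCm38 (annotation release 91) with STAR (2.5.1 in the paper, 2.5.4b in the submitters' processing notes) and deposited raw counts per gene. The counter was GenomicRanges by the paper and featureCounts by the notes, and the handling of strand and of multiply aligned reads is not given in the sources used here. The proteome was not analysed here. A marker of the leukocyte list is not reported here.

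A gene was tested if 50% or more of the libraries of any compared group held 10 or more counts. The test was edgeR 4.0.16 in R 4.3.3 (TMM, quasi-likelihood F-test, no covariate, only the groups compared, Benjamini-Hochberg over all genes tested). The SE of a log2 difference was its absolute size divided by the square root of the F value. It was not estimated by the fit, and is least reliable where a group had almost no counts. DESeq2 1.42.0, no filter, the culture as block, the facility as covariate, all libraries in 1 fit, summed cultures, the other label and leaving out each culture were alternatives. Simulated data were run for the TNF label in organoids and for organoids against m-ICc12 cells only. They had a single spread for all genes, smaller than that of the tuft cell genes, and no pairing by culture. They therefore do not show how well the tests work for the tuft cell genes. Exon lengths came from GENCODE and log2 CPM used a prior count of 2.

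The libraries of an organoid culture come from the same mouse by their titles, and their deviations from the label means correlated at 0.171 on average. In m-ICc12 cells the value was 0.0311, and the numbers were read as names. Named genes are the 8 members, list genes with the smallest p or called in small number, and the 10 genes most like the members; list genes named for being absent, present or abundant were picked after their values were seen. Members and lists were chosen with earlier results of these data known.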

Additional observations from a re-analysis of the deposited data

Results flagged for a closer look

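Of 21 combinations of a tuft cell gene and an organoid group with unequal values, 7 had 1 library far from the others of its group by Dixon's gap criterion. Chance flags about 1 in 20 groups of normally distributed values, which does not hold for groups with most libraries at 0, such as those of Gfi1b, where any single library with counts is far from the others. The combinations are not independent either, since the SPF libraries labelled untreated are also part of the whole untreated group.

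Trpm5 was at 11.5 CPM in the library of Z908 among the organoids labelled untreated, with the next at 5.92 CPM. Gfi1b was at 0.463 CPM in the library of Z910 among the organoids labelled untreated, with the other 8 at 0, and so again among the 6 SPF cultures (0.463 CPM). Gfi1b was at 0.705 CPM in the library of Z917 among those labelled TNF-treated, with the next at 0.112 CPM. Ptgs1 was at 5.23 CPM in the library of Z911 labelled untreated, with the next at 0.597 CPM, and so again among the SPF cultures (5.23 CPM, next 0.517 CPM). Ptgs1 was at 1.17 CPM in the library of Z917 labelled TNF-treated, with the next at 0.545 CPM. Each of these libraries was picked as the extreme of its group, so that a lower value under the other label of the culture carries no weight. Under the other label, Z908 was again the highest for Trpm5 (5.61 CPM, next 4.59). Z917 was next to the highest for Ptgs1 (0.597 CPM). For Gfi1b, Z910 read 0.0399 and Z917 0 CPM under the other label, and for Ptgs1 Z911 read 0.181 CPM.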

How the results depend on the processing

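The number of tuft cell genes called was within 1.5 times the main count in 105 of 106 recalculations. The exception was organoids against m-ICc12 cells with the libraries labelled TNF-treated, with 3 genes called instead of 5, Avil (log2 1.67) and Dclk1 (3.02) being lost. Leaving out 1 culture or replicate number gave 4 to 5 called genes in that comparison, 3 to 4 against MEFs, 2 to 3 between m-ICc12 cells and MEFs, and 0 in all others. In most comparisons the main count was 0, so that the recalculations there set 0 against 0. The limit of 1.5 times also takes 3 falling to 2 as the same, as with the loss of Avil between m-ICc12 cells and MEFs.

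Of the differences that were not called, 32 recalculated values changed sign, none of them called. With the replicate block, the TNF label differences of Dclk1 and Avil turned to 0.13 and 0.04, and the number of all genes called went from 168 to 397, with 0 tuft cell genes among them. In m-ICc12 cells the block gave 6 called genes instead of 13. In the comparison of GF with SPF, the libraries labelled TNF-treated gave 0.44 for Dclk1, 0.69 for Pou2f3, 0.72 for Avil and 1.81 for Ptgs1, and summed cultures gave 0.36 for Dclk1 and 0.22 for Pou2f3. In SR against SE, Pou2f3 turned to 0.53 with the libraries labelled TNF-treated. Leaving out 1 culture gave ranges, for the TNF label in organoids, of -0.59 to 0.19 for Dclk1 and -0.41 to 0.09 for Pou2f3. For GF against SPF they were -2.54 to 0.54 for Dclk1, -0.57 to 0.14 for Pou2f3 and -1.77 to 1.5 for Ptgs1. For SR against SE they were -0.71 to 0.09 for Pou2f3, -0.91 to 0.49 for Dclk1, -0.07 to 1.01 for Trpm5 and -0.92 to 0.16 for Avil. For Alox5ap they were -0.31 to 0.89 against m-ICc12 cells, -1.47 to 2.76 between m-ICc12 cells and MEFs and -5.45 to 0.66 for the TNF label in m-ICc12 cells. For the response by microbiota, Dclk1 ranged from -0.91 to 3.2. The causes were not tested.

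The number of all genes called also depended on the method in the comparisons with few calls, with 4 and 21 genes for GF against SPF in edgeR and DESeq2, 0 and 8 for SR against SE, and 13 and 46 for the TNF label in m-ICc12 cells. Between cultures it was 1448 and 2556. SR against SE gave 35 called genes without Z909, and the TNF label in m-ICc12 cells 93 without M2.

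Depth limits these genes. The 3-count floor lay between 0.0844 and 0.272 CPM in organoid libraries and reached 0.523 CPM in the M1 library labelled TNF-treated, and Dclk1, Avil, Gfi1b, Alox5ap and Ptgs1 each had 0 counts in at least 1 organoid library.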

Other observations

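Genes whose culture means rose and fell with the 4 tuft cell genes above background in organoids were ranked by Pearson's r over the 9 cultures, among 12100 genes and as a description without a test. The 10 highest were Myo7a, Cbr1, Nrg4, Gstm3, Espn, Gpd1, Tmem41a, Ms4a10, Ephx1 and Fabp2, with r between 0.947 and 0.986 and between 0.869 and 0.976 without the 2 cultures farthest from the median (Z913 and Z918). Myo7a and Espn encode an unconventional myosin and an actin-bundling protein, and Fabp2 the fatty acid-binding protein of enterocytes. None of the 10 was in the tuft cell lists. Of the 45 further tuft cell genes, 24 were above background and 13 had r above 0, with a median of 0.123 against 0.016 over all genes. The mean score rests on 4 genes that themselves correlated between -0.602 and 0.293, so that it weighs opposing changes.

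Among the genes through which Il4 and Il13 act, Stat6, the transcription factor of the pathway, was at 134 ± 17.9 CPM in organoids (SD, n = 18), 143 ± 13.9 CPM in m-ICc12 cells (n = 6) and 134 ± 12.6 CPM in MEFs (n = 3). Between the libraries labelled untreated it was not called against either cell type (adjusted p = 0.46 and 0.69, edgeR). The receptor gene Il13ra1, at 40.3, 67.2 and 12.2 CPM on average, was lower in organoids than in m-ICc12 cells (log2 difference -0.8 ± 0.16, adjusted p = 0.00048) and higher than in MEFs (1.8 ± 0.2, adjusted p = 6e-07).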
